A study of Mus musculus with 162 samples.

Results

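The transcripts followed across the organs of fasting mice were those of 9 genes of cerebellar neurons, namely Pcp2, Calb1, Car8, Cbln1, Cbln3, Neurod1, Fat2, Zic1 and Zic2. They were taken by gene symbol, and each matched 1 of the 53686 genes in the count table, of which 38519 had a count in any library. Along with them, a library of white fat that held all these transcripts far above the level of other white fat is described apart.

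Adult male C57BL/6J mice, 8 to 9 weeks old, were either fed freely (0 h) or fasted for 2, 8, 12, 18 or 22 h, with 3 mice at each time and 18 mice in all. Every mouse gave 9 organs, namely olfactory bulb (OB), brain without cerebellum and brainstem (BRN), cerebellum (CBL), brainstem (BST), stomach (STM), liver (LIV), interscapular brown fat (iBAT), perigonadal white fat (pgWAT) and posterior subcutaneous white fat (psWAT). Polyadenylated RNA was sequenced in 162 libraries, whose totals ran from 130701 to 27801717 counts. For 5 libraries the total lay more than 2 SD below the mean log total of their organ and they were left out (BRN 8 h replicate 3, BRN 18 h replicate 1, STM 12 h replicate 3, iBAT 22 h replicate 1 and psWAT 22 h replicate 2). The lowest retained total was 3045845 counts (BRN 18 h replicate 2), and CBL totals ran from 6487419 to 22071004. Levels are given as CPM, each count scaled to the total of its library. A floor of 3 counts per library, under which a level was not told apart from 0, came to between 0.108 and 0.985 CPM in the retained libraries.

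The cerebellar cortex is built around Purkinje cells, large inhibitory neurons that carry its output, and granule cells, small excitatory neurons that are the most numerous neurons of the brain and whose parallel fibres contact the Purkinje cells. Secreted proteins of the cerebellin family, released from granule cells, bind presynaptic neurexins and help to hold these synapses together. Zinc finger proteins of the Zic family and basic helix-loop-helix factors such as NeuroD1 direct the formation of granule neurons and stay on in the adult cell.

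Some libraries stood apart in the summed level of the 9 genes. In psWAT 12 h replicate 3 the sum was 5239 CPM, against a median of 3.56 CPM in the other psWAT libraries, and this library was kept out of every comparison unless stated. In BST 0 h replicate 2 and BST 2 h replicate 1 the sums were 773 and 571 CPM, whereas the other 16 BST libraries held 237 to 317 CPM. Among the other psWAT libraries the sum was highest in 22 h replicate 3 (60.3 CPM) and 0 h replicate 2 (21.4 CPM). Where these libraries moved a fold or an order of organs for the 9 genes, the value without them is given as well, an alternative chosen after the data were seen.

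Among the genes of Purkinje cells, Pcp2, which encodes a modulator of G protein signalling, lay between 284 and 408 CPM in the 18 CBL libraries, with a median of 347. Its highest level elsewhere was 23.9 CPM, in BST 0 h replicate 2, and the BST median was 2.28 CPM, while the medians of OB and BRN were 0.612 and 0.406 CPM. Calb1, which encodes the calcium buffer calbindin, ranged from 1092 to 1446 CPM in CBL (median 1236) and was also present in the rest of the nervous system, with medians of 130 CPM in BRN, 78.9 CPM in BST and 14.9 CPM in OB. Car8, a carbonic anhydrase relative without catalytic activity that binds the inositol trisphosphate receptor, lay between 1802 and 2382 CPM in CBL (median 2059). Outside CBL, Car8 had its highest median in LIV, at 58.5 CPM (46.7 to 77.6), above the BST median of 26.4 CPM. The overlap of these organs came from the BST libraries of high sum, and the other 16 BST libraries (17.0 to 39.7 CPM) lay wholly below LIV.

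Among the genes of granule cells, Cbln1, the founding cerebellin, ranged from 748 to 983 CPM in CBL (median 832). It was also present in BST (median 71.9 CPM, 55.5 to 109.1) and OB (median 68.3 CPM, 55.9 to 87.3), which overlapped, and in BRN (median 19.4 CPM), which lay below both. Cbln3, which encodes a cerebellin secreted only in complex with Cbln1, reached 1449 to 2067 CPM in CBL (median 1818) and had medians of 17.6 CPM in BST and under 1 CPM in OB (0.641) and BRN (0.365). In BST it reached 135.3 CPM in the libraries of high sum and lay between 4.71 and 29.2 CPM in the other 16. Thus the partners differed in range, Cbln1 being present in all parts of the nervous system and Cbln3 mainly in CBL and, at a low level, in BST.

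The transcription factor Neurod1 lay between 281 and 424 CPM in CBL (median 358) and between 3.75 and 28.2 CPM in BST, and its medians in OB, BRN and BST were 9.72, 6.91 and 5.52 CPM. Fat2, which encodes a large protocadherin of parallel fibres, ranged from 301 to 531 CPM in CBL (median 402). Its next organ was not a part of the nervous system but STM, with a median of 17.2 CPM and a range from 1.15 to 40.4 CPM. Zic1 and Zic2 were both highest in CBL, at 740.3 to 961 CPM (median 852) and 163 to 234.3 CPM (median 197), and both had OB as the next organ, with medians of 147.96 and 35.3 CPM. In iBAT, Zic1 and Car8 were present at medians of 9.43 and 8.79 CPM.

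In every case the lowest of the 18 CBL libraries lay above the highest library of any other organ, psWAT 12 h replicate 3 aside. Since the genes were chosen as cerebellar genes, this separation was set by the choice. The distance to the next organ was not the same for all, however. The mean CBL level was 84.6 times that of BST for Pcp2 and 65.9 times for Cbln3, 37.3 times that of OB for Neurod1, 34.8 times that of LIV for Car8 and 22.5 times that of STM for Fat2. For Cbln1 it was 11.9 times that of BST, for Calb1 9.03 times that of BRN, and for Zic1 and Zic2 it was 5.73 and 5.46 times that of OB. Without the BST libraries of high sum, the ratio to BST rose to 147.2 for Pcp2 and 107.9 for Cbln3, and for Cbln1 BST and OB were then nearly level (12.5 and 12.4 times). The widest separations were thus found for genes of both neuron types, and the narrowest for the Zic genes.

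**Figure D1:**
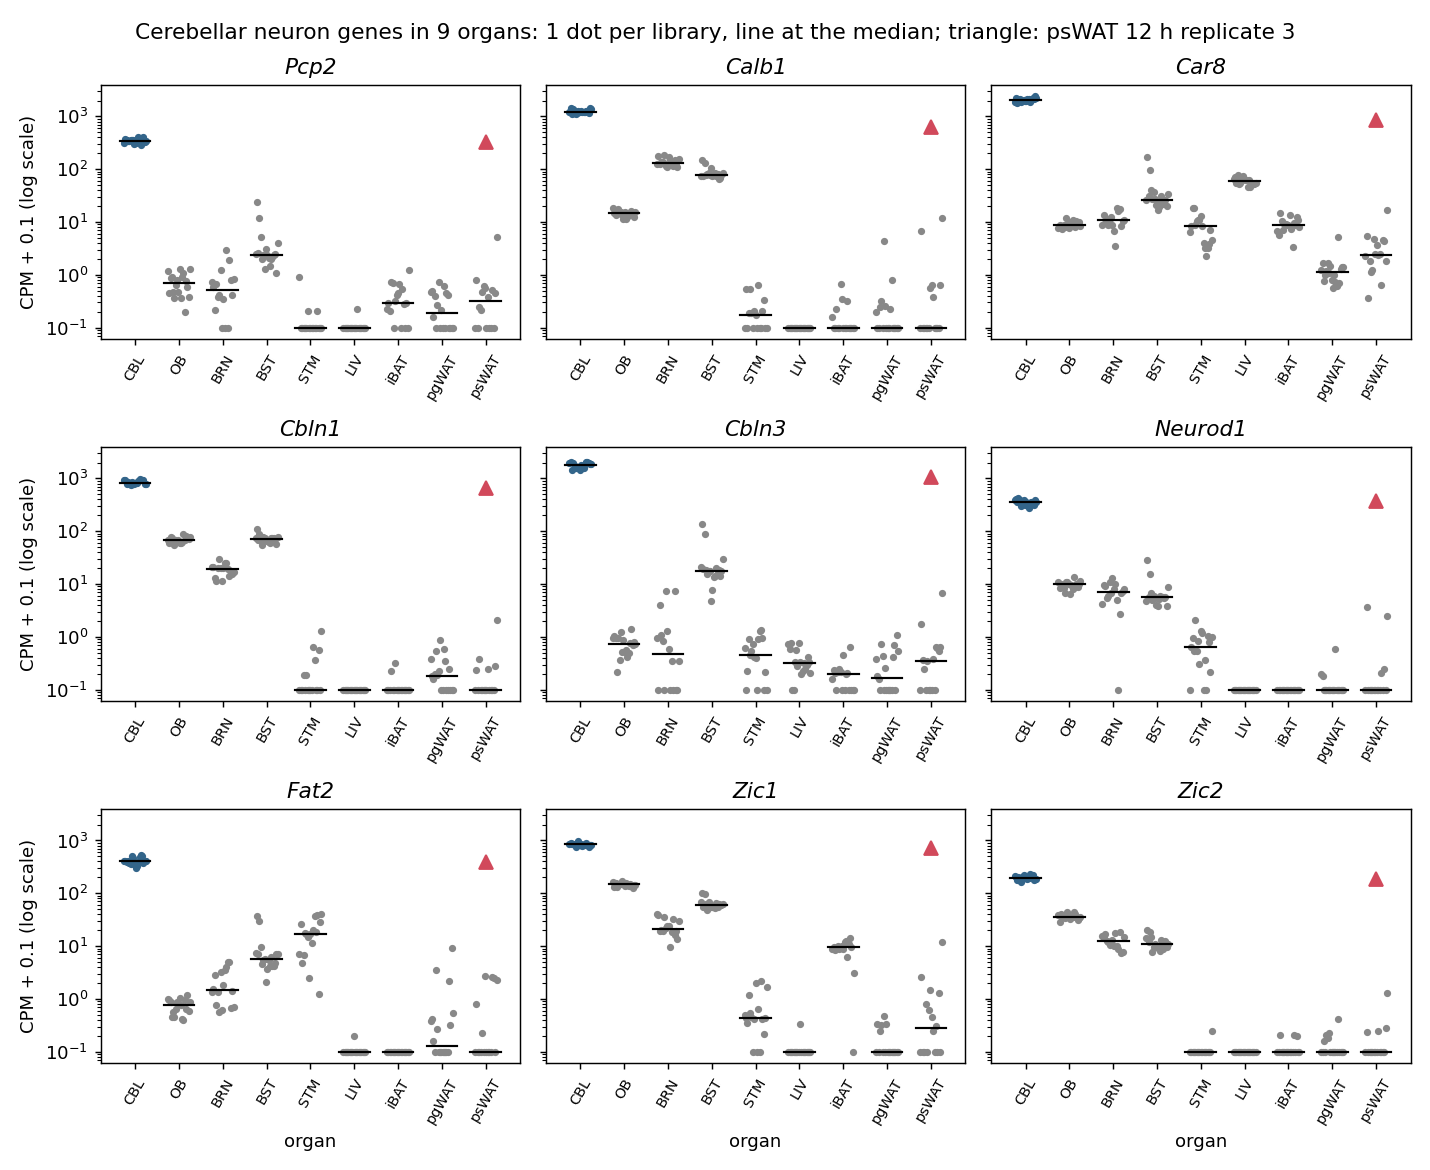
CPM of the 9 genes in each retained library (vertical axes, CPM + 0.1 on a log scale) by organ (horizontal axes), with a line at the median and psWAT 12 h replicate 3 as a triangle. For each gene the lowest CBL library lay above the highest library of any other organ except psWAT 12 h replicate 3, and that library lay within the range of the CBL libraries for 4 genes and below it for 5.

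Below CBL, most neighbours in the order of organ medians overlapped between libraries. Neighbours without overlap were found for Calb1, for which BST lay wholly above OB and OB above STM, Cbln1, for which OB lay above BRN and BRN above pgWAT, Cbln3, for which BST lay above OB, and Zic1, for which OB, BST and BRN followed each other without overlap. Zic2 was higher in OB than in BRN without overlap, whereas BRN and BST overlapped (medians 12.5 and 10.7 CPM), and for Zic2 and Neurod1 BST lay wholly above STM. Without the BST libraries of high sum, BRN also lay wholly above BST for Calb1 (108.8 CPM or more against 106.3 or less). In LIV, Calb1, Cbln1, Zic2 and Neurod1 had no count in any of the 18 libraries, and in iBAT no library had a count of Neurod1 or Fat2.

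Per kilobase of exon, the scale on which genes can be set side by side, Car8 had the highest level in CBL, with a mean of 537 ± 40.95 CPM per kb (SD, n = 18). It was followed by Cbln3 (366 ± 41.3), Cbln1 (282 ± 24.1), Calb1 (257 ± 20.8), Pcp2 (188.7 ± 17.8), Zic1 (148.1 ± 9.75), Neurod1 (130 ± 14.5), Zic2 (68.7 ± 5.95) and Fat2 (28.3 ± 4.38). Fat2 moved from the middle of the order in CPM to its end, its annotated exons covering 14528 bases. Between the 18 CBL libraries, fed and fasted, the coefficient of variation in CPM ranged from 6.58% (Zic1) to 15.5% (Fat2).

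CBL was compared with each of the other parts of the nervous system with edgeR quasi-likelihood fits over all genes, in which a gene was called at a Benjamini-Hochberg adjusted p under 0.05 and a log2 fold change beyond 1. All 9 genes passed the filter on low counts, which their CBL levels alone ensured. These comparisons share the CBL libraries, and their direction for the 9 genes was set by the choice of genes. All 9 were called higher in CBL than in OB (11% of 18496 genes tested), all 9 higher than in BRN (11.7%), all 9 higher than in BST (9.17%) and all 9 higher than in all of them (3.48%). The median log2 fold change of the 9 genes was 6.44 against OB, 5.48 against BRN and 5.52 against BST, whereas the median over all genes tested was 0.01, -0.06 and -0.02. In bulk tissue, a difference in the share of cells of a type and a difference in RNA per cell cannot be told apart.

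The fold changes differed between genes in size and in the organ that came nearest to CBL. For Cbln3 the log2 fold change was 11.39 against OB (SE 0.407), 10.08 against BRN (SE 0.413) and 5.99 against BST (SE 0.297). For Pcp2 it was 9.05 (SE 0.284), 9.03 (SE 0.323) and 6.31 (SE 0.234). The values against BRN rest on few counts, since Cbln3 was at or under the floor of 3 counts in 8 of 16 BRN libraries, with a highest count of 58, and Pcp2 in 9 of 16, with a highest count of 12. In OB both were at or under it in 2 of 18 libraries and at most at 18 and 21 counts. Both were thus closest to CBL in BST, also without the BST libraries of high sum, where the values against BST were 6.70 for Cbln3 and 7.12 for Pcp2. The opposite held for Calb1, with 6.44 against OB (SE 0.0901), 3.02 against BRN (SE 0.0795) and 3.80 against BST (SE 0.0785), so that BRN came nearest. These errors and the p-values measure the spread between mice.

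For Cbln1 the log2 fold change was 3.65 against OB, 5.38 against BRN and 3.52 against BST. For Zic1 it was 2.53, 4.99 and 3.67, and for Zic2 2.46, 3.83 and 4.04, so that OB came nearest to CBL for both Zic genes. Neurod1 gave 5.23 against OB, 5.48 against BRN and 5.56 against BST (SE 0.177, 0.197 and 0.183). Fat2 gave 9.27, 7.73 and 5.52, and Car8 7.86, 7.42 and 5.69. Without the BST libraries of high sum, the log2 fold change against BST was 5.98 for Neurod1, 6.17 for Fat2, 6.21 for Car8, 3.92 for Calb1, 3.58 for Cbln1, 3.77 for Zic1 and 4.16 for Zic2. The value of Cbln1 against BST then stayed below that against OB, so that its nearest organ depended on the scaling. The highest Benjamini-Hochberg adjusted p from edgeR among these tests was 9.83e-29, for Cbln3 against BST with a log2 fold change of 5.99, and each of the 18 CBL libraries lay above each BST library.

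The wider marker lists of cerebellar neurons hold the 9 genes and were chosen as such with earlier results of these data known. Most of their genes were higher in CBL, a direction that was thus set by the choice. Over all genes, the shares called higher in CBL were 11% against OB, 11.7% against BRN and 9.17% against BST. Of 21 Purkinje cell genes, 18 were called higher in CBL than in OB, 18 than in BRN and 18 than in BST, with median log2 fold changes of 4.28, 3.17 and 2.61. Against BST the largest were Pcp2, Ppp1r17, a phosphatase inhibitor (6.00), and Car8, and the smallest were the transcription factor gene Foxp2 (0.16) and the aldolase gene Aldoc (0.07), with edgeR adjusted p of 0.141 and 0.369. Of 19 granule cell genes, 16, 17 and 18 were called higher than in OB, BRN and BST, with medians of 2.53, 3.60 and 3.52. Against BST the largest were those of the GABA receptor subunits Gabra6 (6.43) and Gabrd (5.57) and of Cbln3, and the smallest were Barhl1 (1.85) and the potassium channel gene Kcnc1 (0.85). The list values against BST include the BST libraries of high sum.

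Not every gene related to the 9 followed them. Among 9 genes of the cerebellin family and its receptors, 4 were called higher and 2 lower in CBL than in BST, and among the 14 tested of 15 paralogs of the 9 genes, 8 were higher and 3 lower. Over all genes, 9.17% were called higher in CBL than in BST. No such share is given here for the lower direction, so that the counts of lower genes are descriptions. Other cerebellar cell genes were higher in 7 of 12 and lower in 1. Of 10 genes shared by all neurons, 1 was called higher and 3 lower in CBL than in BST, with a median log2 fold change of -0.26. Lists of neurons of the other parts were chosen as such with earlier results of these data known, so that their direction too was set by the choice. All 10 brainstem neuron genes were lower in CBL than in BST (median -6.61), all 10 olfactory bulb neuron genes lower than in OB (median -7.64) and 9 of 10 forebrain neuron genes lower than in BRN (median -5.20).

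The BST libraries of high sum were also read in marker genes other than the 9. Fat2, 1 of the 9, was at 37.1 CPM in BST 0 h replicate 2 and 29.4 CPM in BST 2 h replicate 1, against 1.96 to 9.63 CPM in the other 16 BST libraries. The 13 granule cell genes outside the 9 summed to 876 and 786 CPM, above the 619 to 698 CPM of the other 16. The 18 Purkinje cell genes outside the 9 summed to 3048 and 2907 CPM against 2634 to 2939 CPM, so that only BST 0 h replicate 2 lay above the others. The brainstem neuron list summed to 483 and 661 CPM, below the 679.7 to 790.1 CPM of the others, and the choroid plexus list to 211 and 2072 CPM, inside their wide range of 43.6 to 3856 CPM. Other lists were above all 16 as well, namely forebrain neuron (311.6 and 242.3 CPM against at most 230.6), blood (177.1 and 227.8 against at most 164.6), skeletal muscle (322.5 and 309.4 against at most 304.8) and 7 genes of the cerebellin family and its receptors outside the 9 (594.7 and 581.4 against at most 578.5). The skeletal muscle list holds Pvalb, a gene also expressed in Purkinje cells. The list of all neurons summed to 8852 and 9477 CPM against 9242 to 10683 CPM, so that BST 0 h replicate 2 lay below the others. Both libraries thus lay above the others in the granule cell list and also in other lists, among them forebrain neuron and blood. The summed level of the 9 genes reached 9.54% and 7.05% of the CBL mean in these libraries. Each of the 9 genes had its highest BST levels in these libraries, which came from different mice, and where this signal came from was not tested.

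Outside the nervous system, Fat2 in STM was read beside genes of keratinised epithelium. It was lowest in STM 22 h replicate 1 (1.15 CPM) and 8 h replicate 2 (2.40 CPM), in which the 10 keratinocyte genes summed to 875.7 and 1381 CPM. It was highest in 22 h replicate 3 (40.4 CPM), 18 h replicate 3 (39.4 CPM) and 18 h replicate 1 (37.8 CPM), with keratinocyte sums of 13396, 10742 and 10407 CPM. Between these ends the order was less alike, with Fat2 at 19.8 CPM and a sum of 10888 CPM in 12 h replicate 2 and at 28.7 CPM with 7250 CPM in 22 h replicate 2. Libraries of the same fasting time, 22 h, thus stood at both ends of the range. The part of keratinised epithelium in the level of Fat2 was not tested.

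In psWAT 12 h replicate 3, with a total of 6361273 counts, the genes of Purkinje cells stood at 328 CPM for Pcp2, 630.4 CPM for Calb1 and 872 CPM for Car8, which were 95.0%, 50.6% and 42.1% of their CBL means. The cerebellins stood at 651 CPM for Cbln1 (76%) and 1067 CPM for Cbln3 (59.8%). Neurod1 was at 373 CPM (105.3%), Fat2 at 399 CPM (97.3%), Zic1 at 729 CPM (86.5%) and Zic2 at 188.96 CPM (95.5%). Pcp2, Zic2, Neurod1 and Fat2 lay inside the range of the 18 CBL libraries, and the other 5 genes lay below it. The percentages were not equal between genes, and they divided the Purkinje cell genes among themselves, Pcp2 being near its CBL mean and Car8 far under it.

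**Figure D2:**
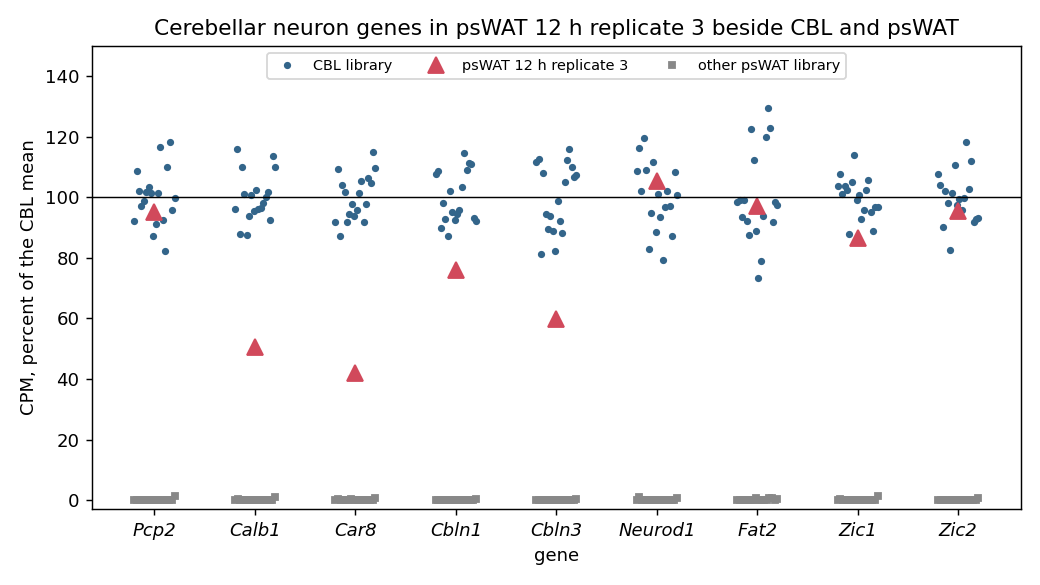
CPM as percent of the CBL mean (vertical axis) for each of the 9 genes (horizontal axis), with psWAT 12 h replicate 3 as triangles, CBL libraries as dots and the other psWAT libraries as squares. The sum in this library was 5239 CPM, 64.6% of the CBL mean of 8106 CPM, and the other psWAT libraries had a median sum of 3.56 CPM.

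Lists of other cell types were read in the same library. All 21 Purkinje cell genes were present and summed to 6802 CPM (54.3% of the CBL mean), with Aldoc the most abundant at 978 CPM, and all 19 granule cell genes summed to 6938 CPM (78.4%), with Cbln3 the most abundant. The 12 genes of other cerebellar cells summed to 1072 CPM (54.7%) with Slc1a3 at 580.5 CPM, the 10 genes of all neurons to 5155 CPM (72.2%) with Snap25 at 2621 CPM, and the 10 oligodendrocyte genes to 3690 CPM (40.6%) with Mbp as the most abundant. The astrocyte genes summed to 2230 CPM (53.8%), and none of these lists had a gene at 0.

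The choroid plexus list was low, unlike the cerebellar, neuronal and glial lists above. Its 10 genes summed to 110 CPM, 4.42% of the CBL mean, with Slc4a5 at 0, Aqp1 the most abundant at 85.5 CPM, and Ttr at 11.8 CPM against a CBL mean of 2305 CPM. The cerebellin family and its receptors summed to 2229 CPM with Cbln2 and Nrxn2 at 0, and the paralogs to 1023 CPM with Cbln2 and Neurod4 at 0. Genes of neurons from other parts were low, at 25.8 CPM for the brainstem list (Chat and Dbh at 0), 59.9 CPM for the olfactory bulb list (Dlx2 at 0, Eomes the most abundant) and 219.6 CPM for the forebrain list (Emx1 at 0, Ppp1r1b at 141.3 CPM).

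Fat markers were present in the library as well. All 10 adipocyte genes were detected and summed to 7236 CPM, with Fabp4 at 2392 CPM, which was 68.0% of the median of 10639 CPM in the other psWAT libraries and inside their range of 821 to 43063 CPM. Brown adipocyte genes summed to 108 CPM, microglia genes to 323 CPM (C1qa at 102.02 CPM), blood genes to 689.8 CPM (Lyz2 at 237 CPM), keratinocyte genes to 42.1 CPM, hepatocyte genes to 20.9 CPM and gastric epithelium genes to 1.41 CPM. The skeletal muscle list summed to 1246 CPM, of which Pvalb, a gene also expressed in Purkinje cells and interneurons, gave 792 CPM, and the enteroendocrine list to 1209 CPM, of which the neuronal granin gene Chgb gave 664 CPM. The library thus held transcripts of white fat together with those of cerebellar neurons and glia, and next to none of the choroid plexus. In the column names the code after the letter L is 5 for this library and 3 for every CBL library. The labels do not say what this code stands for or which libraries shared a run. The origin of the cerebellar transcripts was not tested.

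Fasting was examined within CBL, with 3 libraries at each time, by edgeR joint tests over the fasted times and by contrasts of each time with 0 h. Of the 9 genes, 1 was called in the joint test at an adjusted p under 0.05 (2.99% of 15976 genes tested), and 3 had an unadjusted p under 0.05. In contrasts with 0 h none of the 9 genes was called by edgeR at 2 h (0% of all genes), at 8 h (0%), at 12 h (0%), at 18 h (0.00626%) or at 22 h (0.676%), and DESeq2 called 0 of them at each of these times. Over all genes, 477 were called in the joint test, a count that ran from 22 without CBL 12 h replicate 2 to 1681 without CBL 18 h replicate 3. At an unadjusted p under 0.05 the edgeR contrasts gave 0, 0, 2, 1 and 2 of the 9 genes in this order. The single gene called at 18 h was Abcb1a, which encodes a drug transporter (log2 fold change 1.21, edgeR adjusted p 0.0446), named after its value was seen.

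The gene called in the joint test was Fat2. Its CPM was 405, 407 and 384 at 0 h, 406, 378 and 359 at 2 h, 503, 461 and 365 at 8 h, 301, 324 and 385 at 12 h, 492.5, 531 and 504 at 18 h, and 378, 403.5 and 400.4 at 22 h. The 3 libraries of 18 h lay above all libraries of 0, 2, 12 and 22 h and overlapped those of 8 h, and the lowest levels were found at 12 h. The level thus did not move in 1 direction with the length of the fast. The log2 fold change against 0 h was 0.35 at 18 h (SE 0.0957) and -0.27 at 12 h (SE 0.0964), with edgeR adjusted p of 0.243 and 0.146 for these contrasts and 0.0158 for the joint test. The adjusted p of the joint test ran from 3.51e-10 to 0.0646 over all edgeR and DESeq2 settings, the highest being that without CBL 12 h replicate 2, where the log2 fold change at 18 h was 0.35.

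**Figure D3:**
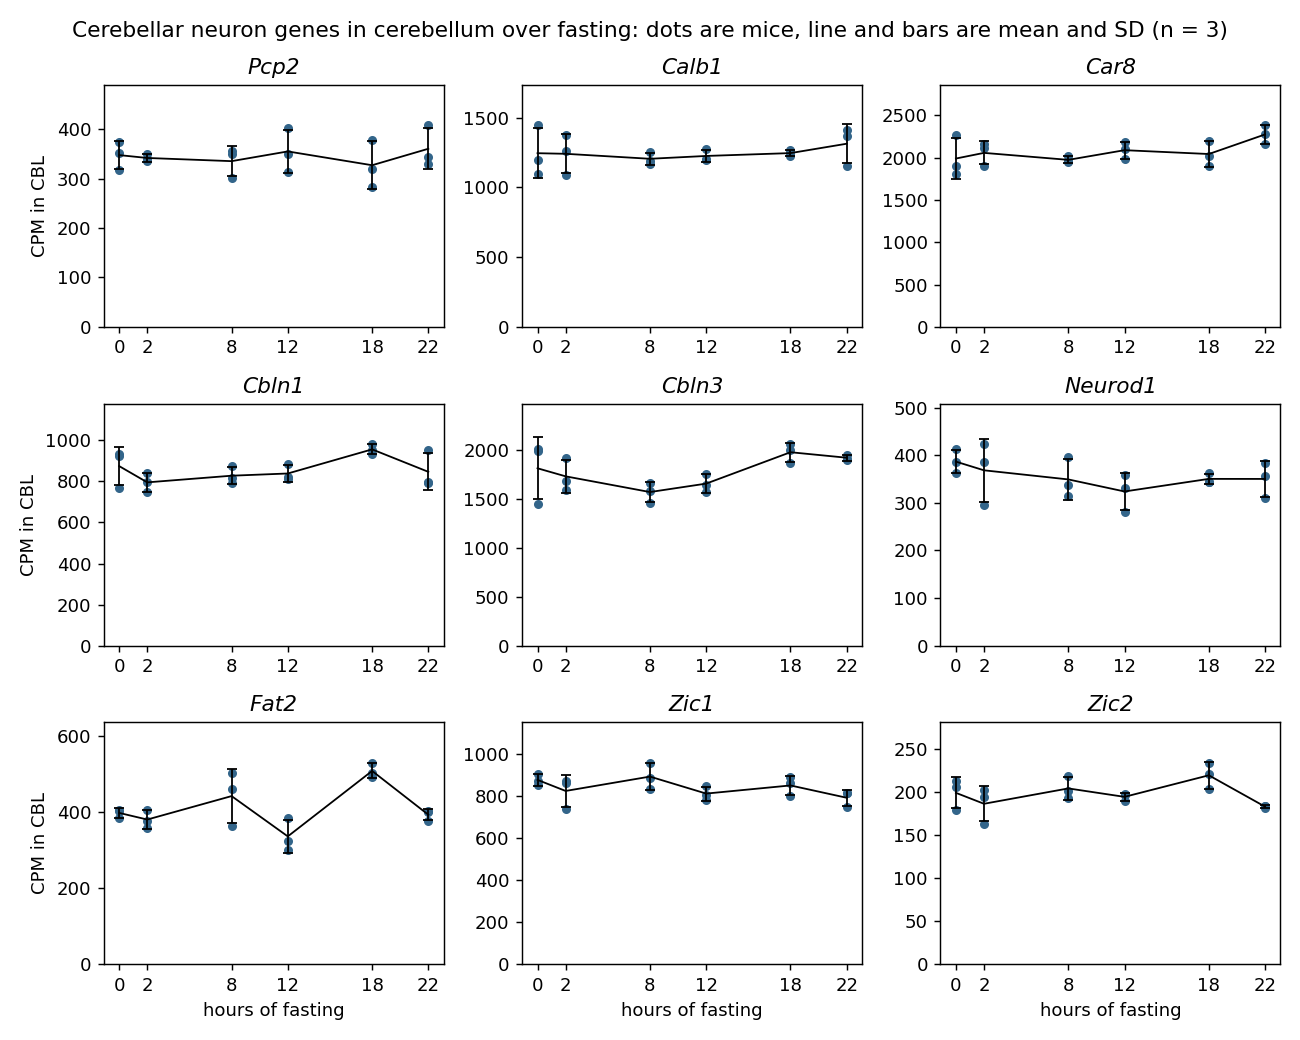
CPM of each of the 9 genes in CBL (vertical axes) by hours of fasting (horizontal axes), with 1 dot per library and the mean and SD of 3 libraries as a line with bars. Fat2 was the only 1 of the 9 genes called in the edgeR joint test, with its highest mean at 18 h (509 CPM) and its lowest at 12 h (337 CPM).

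The other 8 genes were not called over fasting times in CBL. The next lowest edgeR adjusted p in the joint test were those of Cbln3 (0.136, largest log2 fold change -0.20, at 8 h), Zic2 (0.174) and Cbln1 (0.212). Beside them, the granule cell list as a whole summed to 9138 ± 791 CPM at 0 h, 8399 ± 209 CPM at 12 h, 9353 ± 66.6 CPM at 18 h and 8811 ± 66.7 CPM at 22 h (SD, n = 3). Without Fat2, the other 18 genes of the list summed to 8739 ± 779 CPM at 0 h, 8397 ± 599 at 2 h, 8173 ± 418 at 8 h, 8062 ± 221 at 12 h, 8844 ± 56.9 at 18 h and 8417 ± 80.7 at 22 h. The mean was lowest at 12 h and highest at 18 h, as for Fat2, but unlike Fat2 it was not raised at 8 h, and the 12 h and 18 h libraries, apart from each other, both overlapped those of 0 h. The sum of the list was not tested. The Purkinje cell list summed to 12095 ± 1115 CPM at 0 h and 13429 ± 883 CPM at 22 h.

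From the marker lists, the joint test in CBL called 2 of 19 granule cell genes, 3 of 10 oligodendrocyte genes and 2 of 10 astrocyte genes. Over all genes the share was 2.99% of 15976, from a count that was not stable as single libraries were left out. The lists were chosen with earlier results of these data known, so that these counts are descriptions. From the Purkinje cell list, the inositol trisphosphate receptor gene Itpr1 was called (log2 fold change 0.27 at 18 h, edgeR adjusted p 0.0483). Besides Fat2, the granule cell gene was Kcnc1 (-0.30 at 12 h, edgeR adjusted p 0.0338). The myelin genes Mog, Opalin and Cldn11 had log2 fold changes of 0.53, 0.47 and 0.61 at 22 h and the astrocyte genes Gjb6 and Slc1a2 had 0.48 at 22 h and 0.34 at 18 h. The deiodinase gene Dio2, of the brown adipocyte list, was also called (0.35), and in the contrast of 22 h with 0 h so were Plin4 (1.84), Acta1 (1.41) and Lor (1.58), from the adipocyte, muscle and keratinocyte lists.

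Marker lists of other cells in the CBL samples were read at the same times (mean ± SD, n = 3). The oligodendrocyte list summed to 7840 ± 1135 CPM at 0 h, 10208 ± 1001 at 12 h, 8894 ± 1485 at 18 h and 10422 ± 1286 at 22 h, and the astrocyte list to 3784 ± 171.4, 4229 ± 285, 4189 ± 466 and 4459 ± 133.4 CPM. The choroid plexus list summed to 3651 ± 1807, 2670.0 ± 892, 1978 ± 1227 and 926.8 ± 184 CPM, and its most abundant gene, Ttr, was not called in the joint test (edgeR adjusted p 0.216, and 0.0598 at 22 h with a log2 fold change of -2.03). At 12 h and 18 h, where Fat2 was lowest and highest, the oligodendrocyte and choroid plexus lists overlapped between libraries. The libraries of 0 h were also deeper, at 20396385 to 22071004 counts against 6487419 to 9487976 in the other CBL libraries. Depth and the fed state cannot be told apart in CBL by group. With the 0 h counts thinned to the depth of the others, Fat2 stayed called (log2 fold change 0.34, edgeR adjusted p 0.0118). Thinning evens the number of counts only and cannot separate the fed state from other differences that go with depth. The part of these lists in the change of Fat2 was not tested.

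Whether the course over fasting times differed between CBL, OB, BRN and BST was tested with an interaction of organ and time. It was called in edgeR for 2 of the 9 genes (21.2% of 18496 genes), with 3 at an unadjusted p under 0.05 and 4 called by DESeq2, a share close to that of all genes. For Fat2 the edgeR adjusted p was 0.0133, with a range of 6.22e-52 to 0.0259 over the settings. For Car8 it was 0.0498 in edgeR, with a range of 2.29e-60 to 0.260, the highest being that without BST 0 h replicate 2 and BST 2 h replicate 1, an alternative chosen after the data were seen. In BST 0 h replicate 2 Car8 was at 170.1 CPM, against a BST median of 26.4 CPM, so that the call for Car8 rested on these libraries. It was also lost with the animal as a replicate block (adjusted p 0.0969 in edgeR), where Fat2 stayed called (0.0259).

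Within the other parts of the nervous system no gene of the 9 was called over fasting times by edgeR. In OB it was 0 of 9 (15.4% of all genes), with 1 at an unadjusted p under 0.05 and 1 by DESeq2, and the lowest adjusted p in edgeR was 0.0652, for Cbln1. In BRN it was 0 of 8 tested (0.00597%), with 2 at an unadjusted p under 0.05 and 1 by DESeq2, and the only gene of all called was Pde10a, a phosphodiesterase gene of striatal neurons (log2 fold change -1.92, edgeR adjusted p 0.0396), named after its value was seen. This count of 1, and with it the share of all genes, was not stable, at 1577 with DESeq2 and from 0 without BRN 0 h replicate 1 to 2890 without BRN 18 h replicate 3. In BST it was 0 of 9 (0.107%), with 0 at an unadjusted p under 0.05 and 0 by DESeq2, and the count over all genes ran from 1 to 207 as each library was left out. Over all settings, the highest number of the 9 genes called was 1 in each of OB, BRN and BST. An adjusted p over the threshold does not show that the levels were equal.

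In brown fat, 2 of the 9 genes passed the filter on low counts, Zic1 and Car8, and Zic1 was called over fasting times by edgeR (29% of 14529 genes). Its CPM was 8.75, 9.71 and 8.25 at 0 h, 8.94, 9.78 and 8.74 at 2 h, 9.43, 9.90 and 8.63 at 8 h, 11.9, 12.6 and 6.10 at 12 h, and 10.6, 14.4 and 9.65 at 18 h. At 22 h it was 0 in replicate 2 and 3.06 in replicate 3, both below all other iBAT libraries. The left-out library of 22 h, replicate 1, held 5.18 CPM from 14 counts, also below the others. The log2 fold change of 22 h against 0 h was -2.35 (SE 0.544) with an edgeR adjusted p of 0.00305, and the joint test gave 0.0287.

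The call of Zic1 in the joint test depended on few libraries. It was also lost with the replicate block by number, where the log2 fold change at 22 h changed little, as given below. Without iBAT 22 h replicate 3 the fitted log2 fold change was -9.84, a size that depends on the prior count since the library left at 22 h was at 0, and the edgeR adjusted p in the joint test was 0.00174. Without iBAT 22 h replicate 2 the log2 fold change was -1.69 and the edgeR adjusted p in the joint test 0.1001, and with all deposited libraries they were -1.84 and 0.0665, within a range of 7.78e-05 to 0.1001 over the edgeR and DESeq2 settings. Zic1 was 1 of many genes that differed at 22 h, since without that time, an alternative chosen after the data were seen, 65 genes were called over times by edgeR in place of 4210. Brown adipocyte genes went both ways, with Cox8b (1.99), Cox7a1 (1.61), Fabp3 (1.23) and Cidea (1.06) called higher by edgeR at 22 h than at 0 h and Elovl3 (-1.39) and Ppargc1a (-1.01) called lower. The list summed to 8848 ± 1755 CPM at 0 h (SD, n = 3) and 15033 ± 3867 CPM at 22 h (SD, n = 2), and adipocyte genes summed to 15414 ± 1962 and 30971 ± 2802 CPM. The part of these lists in the level of Zic1 was not tested.

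Among the fat depots, Zic1 separated brown from white fat in most libraries. Its level in pgWAT was at or under 3 counts in all 18 libraries and its median in psWAT was 0.178 CPM, with a highest level of 12.0 CPM, against an iBAT median of 9.43 CPM. Car8 lay between 3.27 and 15.0 CPM in iBAT (median 8.79), between 0.464 and 5.09 CPM in pgWAT (median 1.04) and between 0.263 and 17.1 CPM in psWAT (median 2.31), so that iBAT was higher with some overlap. In the comparison of iBAT with pgWAT, 3 of 4 tested genes were called (39.6% of 18738 genes), with Zic1 at a log2 fold change of 7.24 (SE 0.724) that rests on those few counts, and Car8 at 3.46 (SE 0.347), with edgeR adjusted p of 1.24e-12 and 1.23e-12. Against pgWAT, the iBAT level of Zic1 alone took it past the filter on low counts, which set its direction. The other gene called was Fat2, which had no count in iBAT and a highest level of 8.96 CPM in pgWAT, so that no fold is given.

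In the comparison of iBAT with psWAT, 4 of 4 tested genes were called (49.9% of all genes). Zic1 had a log2 fold change of 3.80 (SE 0.606, edgeR adjusted p 1.94e-07) and Car8 of 2.19 (SE 0.341, edgeR adjusted p 1.11e-07). Without psWAT 0 h replicate 2 and psWAT 22 h replicate 3 they were 5.70 and 2.81, the psWAT level of Zic1 being highest in 22 h replicate 3. Including psWAT 12 h replicate 3 turned both around, to -1.36 and -1.68. The values of 3.80 and 2.19 came from the other 16 psWAT libraries. Calb1 and Fat2 were called lower in iBAT, but Fat2 had no count there and Calb1 was at or under the floor in most libraries of both depots. The call of Calb1 (edgeR adjusted p 0.00416) was lost with DESeq2 (adjusted p 0.122) and with the animal as a replicate block (0.0670), within a range of 1.31e-06 to 0.122 over the settings. Both shares are high among all genes, and the calls of the 9 genes were read against them.

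The genes whose log2 CPM ran most like each of the 9 were found by Pearson correlation over the retained libraries except psWAT 12 h replicate 3 (18 each of OB, CBL, BST, LIV and pgWAT, 17 each of STM and iBAT, 16 each of BRN and psWAT). The libraries share organs and mice, so that r is a description and mostly follows the contrast of CBL with other organs. For Pcp2 they were Hes3 (r = 0.988), Cnpy1 (0.985) and Iltifb (0.984), for Calb1 Rgs8 (0.985), Epha8 (0.983) and Slc1a6 (0.980), and for Car8 Sebox (0.896), Gabra6 (0.880) and Hes3 (0.879). For Cbln1 they included Zic2 (0.983) and Galnt13 (0.980), for Cbln3 Gabra6 (0.992), Gm12116 (0.975) and Skor2 (0.974), and for Neurod1 Gm2694 (0.986), Zic5 (0.978) and Gm43398 (0.974). For Fat2 they were Emilin3 (0.908), 2410124H12Rik (0.8996) and Cbln3 (0.893), for Zic1 Zic4 (0.980), Rnf182 (0.975) and Tmem266 (0.965), and for Zic2 Cbln1 (0.983), Grm4 (0.983) and Myt1 (0.983). The genes nearest to Fat2 and Car8 were less alike than those of the other 7, and these were also the genes with STM and LIV as the next organ.

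Between the 9 genes themselves, the correlation over the same libraries was highest for Cbln1 with Zic2 (0.983) and lowest for Fat2 with Zic1 (0.615). Pcp2 of Purkinje cells and Cbln3 of granule cells were at 0.971. Genes of the same cell type were not always the most alike across organs.

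On the GRCm38 genome, the genes lie on 6 chromosomes, with Pcp2 at chr8:3623371-3625545 and Cbln1 at chr8:87468405-87472609, Calb1 at chr4:15881264-15908064 and Car8 at chr4:8143362-8239041, and Cbln3 at chr14:55878913-55884392 and Zic2 at chr14:122475435-122479852. Zic1 lies at chr9:91358058-91365810, Neurod1 at chr2:79452521-79456751 and Fat2 at chr11:55250609-55336564. All but Calb1 and Zic2 are on the minus strand. Exons of Pcp2 share 941 bases with Pet100 and those of Zic1 share 60 bases with Zic4, both on the opposite strand, and those of Neurod1 overlap with Cerkl on the same strand (201 bases) and with Gm26755 on the opposite strand. Since the strand setting of the counting was not stated, the effect of these overlaps on the counts is uncertain.

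Promoter sequences from RefSeq (GRCm38.p6) were found for 5 of the 9 genes (Pcp2, Cbln3, Zic1, Neurod1 and Fat2). The 250 bases before each start were searched on both strands for the E-box CAGCTG and the E-box CAGATG, the core letters bound by helix-loop-helix factors such as that of Neurod1. CAGCTG was present in 13.0% of 32851 promoters, CAGATG in 14.4% and either of them in 25.5%. Of the 5 genes, Pcp2 alone held a match, 1 site of CAGATG seen from 2 of its starts. A match is a description of the letters, and no match says only that these letters are not in the window. The parts of the windows free of annotated exons, all on the minus strand, are shown for 4 of these genes, with the match in capitals. The window of Fat2, which does not reach its outermost exon, is not shown. Whether these sequences regulate the genes was not tested. They are chr8:3625607-3625778 for Pcp2, chr14:55884393-55884506 for Cbln3, chr9:91365811-91366018 for Zic1 and chr2:79456786-79456886 for Neurod1.
Pcp2: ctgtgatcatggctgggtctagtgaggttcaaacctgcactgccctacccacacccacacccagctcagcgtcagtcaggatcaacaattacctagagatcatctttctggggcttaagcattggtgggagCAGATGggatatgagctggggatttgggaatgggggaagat
Cbln3: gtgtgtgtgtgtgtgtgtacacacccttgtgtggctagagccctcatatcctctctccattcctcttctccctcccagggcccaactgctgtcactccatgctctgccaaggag
Zic1: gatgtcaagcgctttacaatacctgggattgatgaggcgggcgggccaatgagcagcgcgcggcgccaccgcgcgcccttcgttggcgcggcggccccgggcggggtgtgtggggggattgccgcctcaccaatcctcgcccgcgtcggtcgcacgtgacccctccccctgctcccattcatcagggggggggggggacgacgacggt
Neurod1: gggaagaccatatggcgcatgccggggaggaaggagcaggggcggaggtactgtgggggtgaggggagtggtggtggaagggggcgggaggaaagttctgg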

How the data were processed

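Counts of uniquely mapped reads per gene were deposited by the authors as 1 count table for stranded polyadenylated libraries, made with TopHat2 2.1.1 on GRCm38.p5 and HTSeq 0.9.1. CPM were computed here from these counts with the library total as the denominator. Genes were kept when their CPM reached that of 10 counts in the library of median size in at least 3 libraries. Fits used edgeR 4.0.16 (TMM factors, robust quasi-likelihood, Benjamini-Hochberg adjusted p) in R 4.3.3, with 1 fit over the organs compared and 1 fit per organ for fasting. A gene was called at an adjusted p under 0.05, in contrasts with a log2 fold change beyond 1. SE are approximations, the size of the log2 fold change over the square root of the F statistic. Alternatives were DESeq2 1.42.0, RLE factors, no filter, all deposited libraries, the 0 h libraries thinned, a replicate block and leaving out each library in turn. Tables and plots used Python 3.11.15, pandas 2.3.3, numpy 2.4.6 and matplotlib 3.10.9.

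Depth per library and the libraries left out are given at the start of the results. The animal number in the labels links organs of 1 mouse, so as an alternative the animal was added to the edgeR model as a replicate block across organs. This pairing was checked on the values: over the residuals of 10935 genes, the mean correlation between CBL and BST of the same animal was 0.0734 against -0.0369 for other animals, and for iBAT with psWAT it was -0.0104. Within an organ the replicate block shares only a number between different mice.

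The 9 genes and 21 marker lists (218 genes) were chosen with earlier results of these data known. Besides the 9 genes, the text names the most abundant gene of a list, list genes called in CBL over fasting up to the 5 with the lowest adjusted p, brown adipocyte genes called in iBAT at 22 h, the 3 largest and 2 smallest fold changes against BST of the Purkinje and granule cell lists, and the 3 genes most like each of the 9 by Pearson correlation of log2(CPM + 1). Some genes that these rules name are not reported here. Gene positions are those of Gencode on GRCm38. Intervals and floors cover counting error only.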

Additional observations from a re-analysis of the deposited data

Results flagged for a closer look

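The 9 genes were read in psWAT 12 h replicate 3, a library kept out of the reported comparisons and included in iBAT against psWAT only as an alternative, and all stood far above the other psWAT libraries, whose sums reached at most 60.3 CPM. The levels were 328 CPM for Pcp2, 630.4 CPM for Calb1, 872 CPM for Car8, 651 CPM for Cbln1, 1067 CPM for Cbln3, 373 CPM for Neurod1, 399 CPM for Fat2, 729 CPM for Zic1 and 188.96 CPM for Zic2. The source of these transcripts was not tested.

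The interaction of organ and time over CBL, OB, BRN and BST was called for Fat2 (edgeR adjusted p 0.0133, 6.22e-52 to 0.0259 over the settings) and for Car8 (edgeR adjusted p 0.0498, 2.29e-60 to 0.260 over the settings). This is 2 of the 9 genes, where 21.2% of all genes tested were called. The call of Car8 was lost with the animal as a replicate block (edgeR adjusted p 0.0969) and without BST 0 h replicate 2 and BST 2 h replicate 1 (0.260). The largest log2 fold change of Fat2 against 0 h in CBL was 0.35, at 18 h.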

How the results depend on the processing

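The log2 fold changes of the 9 genes in CBL against OB, BRN and BST kept their direction and their call in each recomputed value (2.45 to 11.5), a direction set by the choice of genes. Of 278 recomputed counts of genes called, 179 stayed within 1.5 times the reported count and 99 did not. The causes of the changes below were not tested.

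Including psWAT 12 h replicate 3 reversed Zic1 (-1.36) and Car8 (-1.68) in iBAT against psWAT. With the other 16 psWAT libraries they were 3.80 and 2.19.

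Without a filter on low counts, 3324 genes were called higher in CBL than in OB and 3454 than in BRN. Over fasting times 2397 were called in CBL, 4388 in OB, 2015 in BRN and 749 in BST, and in CBL 15 at 2 h, 10 at 8 h, 49 at 12 h, 18 at 18 h and 194 at 22 h. With DESeq2 the counts were 7080 for the interaction, 1772 over times in CBL, 1577 in BRN and 219 in BST, and in CBL 1 at 2 h, 1 at 8 h and 8 at 18 h. With all deposited libraries the interaction gave 1198 genes and BRN over times 7. The replicate block by number, which links different mice, gave 4 genes in CBL at 12 h, 2 at 18 h, 0 over times in BRN and 33 in BST. RLE factors gave 0 genes in CBL at 18 h, where the edgeR count with TMM was 1, DESeq2 gave 8 and 1471 had an unadjusted p under 0.05. Scaled by TMM in place of library totals, the 9 genes in psWAT 12 h replicate 3 summed to 56.8% of the CBL mean. Among alternatives chosen after the data were seen, BST without 0 h replicate 2 and 2 h replicate 1 gave 54 genes, and iBAT without 22 h gave 65.

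Leaving out each library in turn, the genes called over times ranged from 22 (without 12 h replicate 2) to 1681 (without 18 h replicate 3) in CBL, from 1035 (without 18 h replicate 1) to 3676 in OB, from 0 to 2890 (without 18 h replicate 3) in BRN, from 1 (without 22 h replicate 3) to 207 (without 0 h replicate 3) in BST and from 876 (without 22 h replicate 2) to 5346 in iBAT. In CBL they ranged from 0 to 1 at 2 h, 0 to 12 at 8 h, 0 to 23 at 12 h, 0 to 8 at 18 h and 2 (without 22 h replicate 2) to 1.5e+02 at 22 h. The log2 fold change of Fat2 at 18 h ranged from 0.33 to 0.39, and the edgeR adjusted p of its joint test over all times from 0.00228 to 0.0646. Zic1 in iBAT at 22 h had -2.20 with the replicate block and was not called in the joint test (adjusted p in edgeR 0.0517). Libraries of the same number in iBAT had a mean correlation of 0.178, against -0.0906 for other numbers.

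With 3 mice at each time, 2 in some groups, changes in the time course smaller than the spread between mice could not be seen. In groups left with 1 library, that library was assumed to vary like the others. The level of Zic1 in iBAT at 22 h rests on 27 counts in replicate 3 and 0 in replicate 2.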
